A study of Mus musculus with 24 samples.

Results

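A set of 32 genes of platelets and megakaryocytes was followed across 24 RNA-seq libraries of mouse blood progenitors. The genes were picked by symbol, for what they are known to do in platelets, out of 55487 gene identifiers in the count table. That choice was made with earlier results of these data known. All 32 were found, and all 32 passed the filter on low counts that left 18931 genes for testing. They fall into 10 adhesion receptors, 5 agonist receptors and transporters, 5 granule and secreted proteins, 7 signalling, secretion and enzyme genes, 2 cytoskeletal genes and 3 transcription factors.

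The cells were LSK progenitors, which lack lineage markers, carry Sca1 and KIT, a compartment that holds the stem cells of blood together with multipotent progenitors. The ME cells came from mice with a Tet-On MLL::ENL, an inducible fusion of the MLL (Kmt2a) and ENL (Mllt1) genes found in leukaemia, and were set against control cells. The fusion was switched on after sorting, and libraries were made after 48 h in culture. The E16 cells came from liver of embryos (day 16), the P14 cells from bone marrow on postnatal day 14 and the 8wk cells from bone marrow of mice aged 8 weeks, so at E16 age and tissue cannot be told apart. Each of the 6 groups held 4 libraries. The agent that switched the fusion on, the driver of the transgene, and whether control cells were given the agent or carried any part of the Tet-On system are not given in the sources used here. No label says that replicates came from separate animals, so the p-values measure only how far these libraries vary, and that variation may be technical.

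Megakaryocytes are the large marrow and fetal liver cells that shed platelets. They assemble adhesion receptors, granules and a tubulin coil under the control of transcription factors such as GATA1, FLI1, NFE2 and GFI1B. Some blood stem cells and early progenitors already carry RNA of several of these genes, a state often called megakaryocyte priming.

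The libraries held 33.9 to 69.3 M counts each (median 47.1 M). Mllt1 lay between 41.6 and 60.1 CPM in the E16 ME libraries and between 13.9 and 26.7 CPM in the E16 controls. At P14 the ranges were 39.8 to 89.3 CPM in ME and 13.6 to 29.8 CPM in controls, and at 8wk 35.7 to 54.8 CPM in ME and 9.90 to 20.7 CPM in controls, so ME and control libraries did not overlap at any age. A gene count holds reads of the native gene and of the fusion alike. Kmt2a means were 17.6, 26.2 and 24.3 CPM in ME at E16, P14 and 8wk, and 9.74, 12.8 and 14.6 CPM in controls. Kit was detected in every group, at means of 465 to 1463 CPM, and Ly6a, which encodes Sca1, at 85.5 CPM in P14 controls to 660 CPM in E16 controls. At 8wk both were higher in ME than in controls. Kit differed there by 1.59 ± 0.17 log2 (SE; edgeR adjusted p = 2.33e-06) and Ly6a by 1.06 ± 0.27 (adjusted p = 0.0055). Of all libraries, 8wk ME replicate 4, E16 ME replicate 4 and 8wk control replicate 1 lay farthest from the other members of their groups.

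Most of the platelet genes fell with MLL::ENL in fetal cells, and after birth fewer passed the test, in both directions. At E16, 20 of the 32 genes were lower in ME and 0 were higher, where edgeR called 8.47% of all tested genes lower and 13.3% higher. The median log2 fold change of the 32 genes was -0.90, against 0.02 over all tested genes. For the same 20 genes all 4 ME libraries lay below all 4 controls, an arrangement found for 12.8% of all tested genes. At an unadjusted p under 0.05, 1 gene was higher at E16, and DESeq2 called 1 gene higher, Gp5 in both cases. At P14, 5 genes were higher and 2 lower, against 12.7% and 9.35% of all tested genes. With scaling by library size only, 5 were higher and 0 lower at P14. At 8wk, 4 were higher and 6 lower, against 14.2% and 14.3%. These counts after birth lay near the shares over all tested genes, and no pattern of the 32 genes is read from them. The libraries of the groups did not overlap for 5 genes higher and 5 lower at P14 (14.1% and 12.4% of all tested genes) and for 3 higher and 4 lower at 8wk (12% and 9.04%). The medians were -0.14 at P14 and -0.27 at 8wk, against 0.03 and -0.02 over all tested genes. The 8wk median was 0.12 without 8wk control replicate 1. In RNA from a mixed cell sample, fewer cells of a type and less RNA per cell cannot be told apart.

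**Figure D1:**
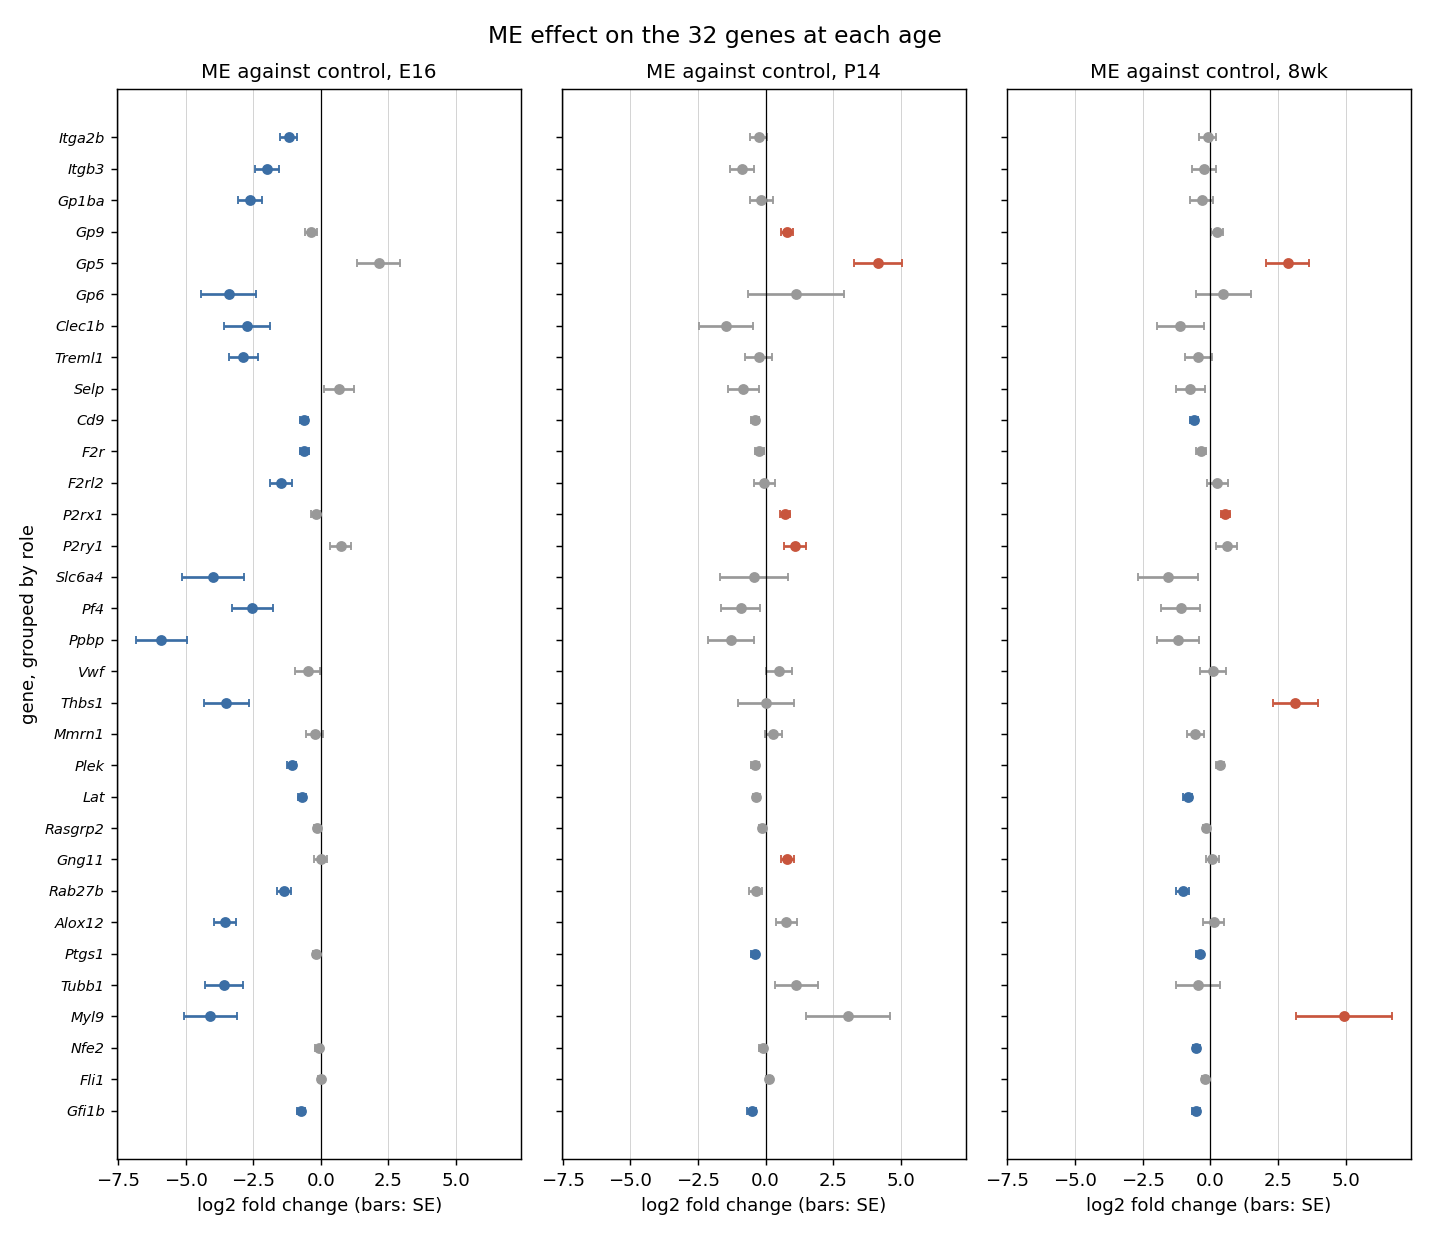
Log2 fold change of ME against control for the 32 genes at E16, P14 and 8wk (horizontal axis, same scale in each panel; points are edgeR estimates, bars are SE, 4 libraries a group), with blue for lower and red for higher at an adjusted p under 0.05 and grey for the rest. At E16, 20 points are blue and none is red; at P14 and 8wk most are grey.

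Subunits of the glycoprotein Ib-IX-V complex, the platelet receptor for von Willebrand factor, were called in opposite directions at different ages. Gp1ba, the subunit that binds von Willebrand factor, fell at E16, whereas Gp9 rose at P14 and Gp5 rose at P14 and 8wk. Their promoters are shown because these 3 genes encode parts of 1 receptor and were called in opposite directions at different ages. That choice was made after their values were seen. At no single age did the main edgeR test call them in both directions. Each line gives the 150 bases just upstream of the start site, taken from RefSeq for GRCm38.p6, with GATA words (the word AGATAA, the word AGATAG, the word TGATAA and the word TGATAG, on either strand) and ETS words (the word CAGGAA and the word CCGGAA, on either strand) in capitals.
Gp1ba, chr11:70638972-70639121, plus strand: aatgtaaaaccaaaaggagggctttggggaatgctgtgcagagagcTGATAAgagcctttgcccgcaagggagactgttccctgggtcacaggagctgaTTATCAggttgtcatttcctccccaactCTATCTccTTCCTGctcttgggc
Gp9, chr6:87777920-87778069, plus strand: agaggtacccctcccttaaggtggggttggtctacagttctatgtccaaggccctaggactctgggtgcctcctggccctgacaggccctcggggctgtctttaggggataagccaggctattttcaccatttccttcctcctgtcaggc
Gp5, chr16:30310782-30310931, minus strand: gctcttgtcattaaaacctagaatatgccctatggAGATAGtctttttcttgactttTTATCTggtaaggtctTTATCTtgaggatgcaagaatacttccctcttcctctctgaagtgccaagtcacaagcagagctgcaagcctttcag
In these windows Gp1ba held 3 GATA words and 1 ETS word, Gp5 held 3 GATA words and Gp9 held none of either.

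Over the 250 bases upstream of the start, 25 of the 32 genes had a RefSeq promoter. A GATA word stood in the promoter of 9 of them (36.0%), against 26.5% of 32851 promoters of the same length. An ETS word stood in 12 (48.0%), against 35.1% of all promoters. The RUNX word TGTGGT stood in 2 (8.0%, against 14.0%) and the NF-E2 word TGCTGAG in 1 (4.0%, against 6.2%), both strands counted. Such matches describe letters only. P2rx1, Slc6a4, Mmrn1 and Gp1ba held both a GATA and an ETS word.

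Gp1ba (chromosome 11, 70639122 to 70642036, GRCm38) read 12.7, 7.44, 20.4 and 14.0 CPM in E16 control replicates 1 to 4, and 1.45, 1.99, 3.58 and 1.86 CPM in E16 ME. Every ME library lay below every control. The log2 fold change was -2.62 ± 0.44 (SE; edgeR adjusted p = 0.000208). At P14 Gp1ba was already low in controls, at 1.97 ± 0.274 CPM (SD, n = 4), and ME stood at 1.77 ± 0.529 CPM. At 8wk the groups overlapped, with 4.70 ± 4.17 CPM in controls and 3.78 ± 0.610 CPM in ME, and 8wk control replicate 1 alone read 10.8 CPM.

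Gp9 (chromosome 6, 87778072 to 87779768) read 10.2, 7.81, 9.68 and 4.76 CPM in P14 controls and 16.6, 16.7, 10.6 and 12.0 CPM in P14 ME. The ME libraries all lay above the controls, and the log2 fold change was 0.78 ± 0.22 (edgeR adjusted p = 0.012). Without P14 control replicate 4, the lowest library, it was 0.60 (adjusted p = 0.0517). The E16 difference had the other sign, at -0.36 ± 0.22 (adjusted p = 0.246), and at 8wk it was 0.26 ± 0.22 (adjusted p = 0.391).

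Gp5 (chromosome 16, 30307685 to 30310779) read 0.645, 0.209, 0.181 and 0.0675 CPM in P14 controls and 9.59, 5.96, 2.84 and 0.737 CPM in P14 ME. Its 8wk controls read 3.35, 0.524, 0.279 and 0.451 CPM, and its 8wk ME libraries 8.55, 11.9, 8.61 and 5.20 CPM. At both ages the ME libraries all lay above the controls, by a log2 fold change of 4.16 ± 0.89 at P14 (edgeR adjusted p = 0.00208) and 2.86 ± 0.80 at 8wk (adjusted p = 0.0115). The P14 value was 3.57 without P14 ME replicate 1 (adjusted p = 0.00816) and 4.87 without P14 control replicate 1 (adjusted p = 0.00171), and the 8wk value was 4.37 without 8wk control replicate 1 (adjusted p = 0.000506). At E16 the controls read 2.36, 0.892, 1.16 and 0.963 CPM and the ME libraries 8.74, 8.13, 5.88 and 1.19 CPM. E16 ME replicate 4 fell inside the control range and the other ME libraries lay above it. The E16 log2 fold change of 2.14 ± 0.79 missed the threshold (adjusted p = 0.0575), and without that library it was 2.48 (adjusted p = 0.0354). Gp1bb, the fourth subunit, held 0 to 16 counts over the 4 libraries of a group and was not tested.

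**Figure D2:**
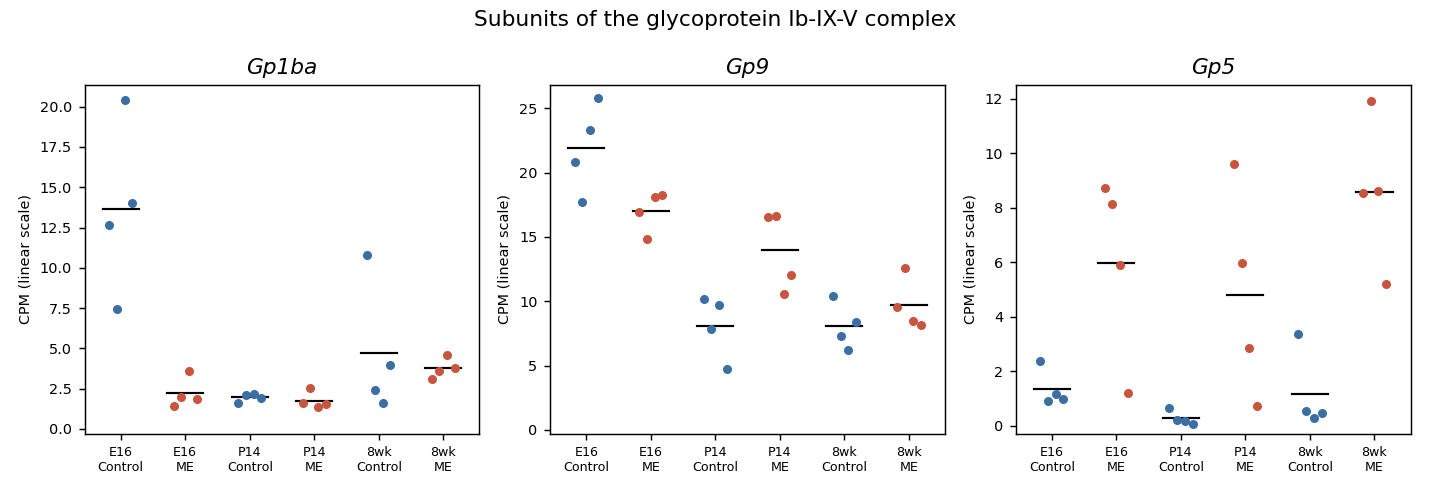
CPM (linear scale) of Gp1ba, Gp9 and Gp5 in each library (points; controls blue, ME red) with the group mean (line, 4 libraries a group). Gp1ba is highest in E16 controls, whereas Gp5 in 8wk ME lies wholly above the 8wk controls.

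The other adhesion receptors fell at E16 or stayed under the threshold. Itga2b and Itgb3 encode the chains of the platelet fibrinogen receptor, and Itga2b (CD41) also marks early embryonic blood progenitors. Itga2b read 58.0, 40.9, 54.5 and 50.9 CPM in E16 controls and 18.3, 23.1, 27.5 and 20.7 CPM in E16 ME, a log2 fold change of -1.19 ± 0.31 (edgeR adjusted p = 0.00934). Itgb3 read 173, 158, 303 and 209 CPM in E16 controls and 46.0, 61.7, 80.01 and 24.5 CPM in E16 ME, a log2 fold change of -1.99 ± 0.45 (adjusted p = 0.00354). Neither gene overlapped between the groups. At P14 and 8wk Itga2b differed by -0.25 ± 0.31 and -0.09 ± 0.31, and Itgb3 by -0.87 ± 0.44 and -0.23 ± 0.44. With replicate number as a block within each age, Itgb3 passed at P14, at -1 (edgeR adjusted p = 0.041).

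Treml1, a receptor held in platelet granules, read 21.9, 14.7, 49.1 and 35.1 CPM in E16 controls and 3.64, 5.60, 5.48 and 1.84 CPM in E16 ME (log2 fold change -2.86 ± 0.54, edgeR adjusted p = 0.000677). Gp6, the collagen receptor, read 4.12, 1.97, 9.63 and 6.55 CPM against 0.507, 0.602, 0.968 and 0 CPM (-3.40 ± 1.02, adjusted p = 0.0209). Clec1b, the podoplanin receptor, read 12.1, 6.64, 25.5 and 21.3 CPM against 2.61, 3.71, 3.64 and 0.0448 CPM (-2.71 ± 0.85, adjusted p = 0.0277). In all 3 genes every E16 ME library lay below every control, and E16 ME replicate 4 was the lowest. The Gp6 call was lost without E16 ME replicate 1 (adjusted p = 0.051), without E16 control replicate 3 (0.0656), with DESeq2 (0.073) and without the filter on low counts (0.0646). The Clec1b call was lost without E16 ME replicate 1 (0.0596), E16 control replicate 3 (0.0747) or E16 control replicate 4 (0.0602), and without the filter (0.0762). Clec1b shares exonic bases with Clec9a on the same strand, so its counts are uncertain.

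Cd9, a tetraspanin of the platelet surface that is also present on many progenitors, read 230, 197, 295 and 297 CPM in E16 controls and 187, 159, 153 and 164 CPM in E16 ME. Its 8wk controls read 275, 366, 490 and 420 CPM, and its 8wk ME libraries 241, 284, 232 and 265 CPM. The groups were apart at E16 (-0.62 ± 0.14, edgeR adjusted p = 0.00255), whereas at 8wk ME replicate 2 reached above control replicate 1 (-0.60 ± 0.14, adjusted p = 0.00274). At P14 the difference was -0.38 ± 0.14 (adjusted p = 0.0537), with the ME libraries all below the controls, and it was called under 6 alternatives, among them DESeq2 (adjusted p = 0.0461), only the P14 libraries in the fit (0.00711) and leaving out P14 control replicate 1 (-0.45, 0.0325). Selp, the granule adhesion molecule P-selectin, passed at no age and was most abundant in 8wk controls (12.4 ± 7.37 CPM). Both genes overlap a gene on the opposite strand, and the strand setting of the counting is not given in the sources used here, so reads of the partners cannot be told apart.

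Among the receptors for platelet agonists, the thrombin receptors fell at E16 and the ATP receptor rose after birth. F2r, the main thrombin receptor of progenitors and many other cells, read 234, 212, 268 and 275 CPM in E16 controls and 154, 149, 169 and 177 CPM in E16 ME (-0.61 ± 0.17, edgeR adjusted p = 0.0111). F2rl2, which helps thrombin signal on mouse platelets, read 26.02, 17.5, 40.7 and 30.9 CPM against 10.8, 10.0, 13.6 and 6.90 CPM (-1.48 ± 0.40, adjusted p = 0.0111). Neither overlapped between the groups at E16, and neither passed at P14 or 8wk. Without 8wk ME replicate 4, at 235 CPM its highest ME library, F2r was lower at 8wk, at -0.58 (adjusted p = 0.00413). In 8wk controls F2rl2 read 35.6 CPM in replicate 1 and 7.31 to 11.9 CPM in the others, and without that library it was higher in 8wk ME, at 1.05 (adjusted p = 0.0107).

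P2rx1, an ATP-gated cation channel, read 23.7, 19.5, 22.5 and 15.5 CPM in P14 controls and 37.3, 40.1, 28.7 and 27.3 CPM in P14 ME (0.72 ± 0.18, edgeR adjusted p = 0.00533). Its 8wk controls read 24.3, 20.0, 21.5 and 25.5 CPM and its 8wk ME libraries 35.0, 34.1, 34.9 and 30.5 CPM (0.56 ± 0.18, adjusted p = 0.0203). ME and control ranges were apart at both ages, with ME the higher, while at E16 the groups overlapped (-0.17 ± 0.18, adjusted p = 0.535). The 8wk call was lost without 8wk control replicate 2 (0.50, adjusted p = 0.0689). P2ry1, an ADP receptor, read 4.43, 3.74, 1.78 and 0.928 CPM in P14 controls and 5.85, 6.84, 6.00 and 4.54 CPM in P14 ME (1.10 ± 0.40, adjusted p = 0.0499). Its groups did not overlap, yet the call was lost when any single P14 library other than control replicate 1 or 2 was left out (adjusted p = 0.0545 to 0.152), with only the P14 libraries in the fit (0.0888) and without the filter (0.119). P2ry1 overlaps Gm37035 on the opposite strand.

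Slc6a4, the serotonin transporter, read 49.6, 25.95, 96.1 and 54.6 CPM in E16 controls and 1.06, 6.04, 5.88 and 1.25 CPM in E16 ME. The groups were far apart, at a log2 fold change of -3.98 ± 1.14 (edgeR adjusted p = 0.0168). The call was lost without E16 ME replicate 1 (-3.68, adjusted p = 0.0508) or E16 ME replicate 4 (-3.70, adjusted p = 0.0542). In bone marrow Slc6a4 was low in both arms, at 0.425 ± 0.600 CPM in P14 controls, 0.322 ± 0.427 CPM in P14 ME and 0.787 ± 0.576 CPM in 8wk ME, and at 7.69 CPM in 8wk control replicate 1 alone.

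Of the granule and secreted proteins, the chemokines fell at E16 and Thbs1 took opposite directions in fetal and adult cells. Pf4 and Ppbp, chemokines of the alpha granule, are neighbours on chromosome 5 (90772435 to 90773383 and 90768518 to 90770063). Ppbp read 94.3, 49.7, 236 and 173 CPM in E16 controls and 1.04, 2.65, 5.02 and 0.493 CPM in E16 ME, a log2 fold change of -5.89 ± 0.95 (edgeR adjusted p = 0.000196), the largest fall among the 32 genes. Without E16 ME replicate 3 it was -6.62 (adjusted p = 0.000344). Pf4 read 94.5, 63.6, 116 and 134 CPM in E16 controls and 26.7, 27.3, 14.3 and 2.31 CPM in E16 ME (-2.53 ± 0.77, adjusted p = 0.023). Neither chemokine overlapped between the groups at E16. The Pf4 call was lost without E16 ME replicate 3 (adjusted p = 0.058), E16 ME replicate 4 (0.0592) or E16 control replicate 4 (0.0536), and without the filter on low counts (0.0607).

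After birth the chemokines parted in level. Ppbp read 2.51, 5.68, 0.843 and 0.878 CPM in P14 controls and 34.4, 7.42, 2.79 and 7.04 CPM in 8wk controls, all below the lowest E16 control. Pf4 read 51.4, 68.7, 17.3 and 24.6 CPM in P14 controls and 282, 157, 148 and 154 CPM in 8wk controls, the latter above every E16 control. In P14 ME Pf4 read 47.8, 31.6, 2.98 and 3.25 CPM, so replicates 1 and 2 lay inside the control range and replicates 3 and 4 below it (-0.92 ± 0.73, edgeR adjusted p = 0.41). In 8wk ME it read 127, 93.2, 73.4 and 52.3 CPM, all below the controls, but the difference did not pass (-1.10 ± 0.73, adjusted p = 0.283). With only the 8wk libraries in the fit it was called, at -1.07 (adjusted p = 0.0407).

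Thbs1 (chromosome 2, 118111876 to 118127133), thrombospondin, an adhesive glycoprotein of the alpha granule that is also made by macrophages and stroma, read 124, 69.8, 280 and 137 CPM in E16 controls and 3.30, 17.9, 32.1 and 1.12 CPM in E16 ME (-3.49 ± 0.83, edgeR adjusted p = 0.00524), or -4.36 without E16 ME replicate 3 (adjusted p = 0.00265). In 8wk controls it read 6.01, 1.42, 0.367 and 1.57 CPM, and in 8wk ME 28.8, 25.9, 22.8 and 6.58 CPM (3.14 ± 0.84, adjusted p = 0.00856). The groups were apart at both ages, with ME below controls at E16 and above them at 8wk. Without 8wk control replicate 1 the 8wk value was 4.26 (adjusted p = 0.00153). At P14 Thbs1 was under 1 CPM in all 8 libraries. Monocyte and macrophage markers also rose at 8wk. Their summed level was 28.4 to 304 CPM in 8wk ME and 8.08 to 97.9 CPM in 8wk controls. Of 10 such markers 6 rose there (Cd14 by 5.21 ± 0.91 log2, edgeR adjusted p = 0.000352). At E16, where Thbs1 fell, the median log2 fold change of these markers was 0.75, with 1 of 10 higher and 0 lower. At P14 the median of the markers was 3.87, with 4 of 10 higher and 0 lower. Their part in the Thbs1 result was not tested. Thbs1 overlaps Gm29233 on the opposite strand.

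Vwf, the large adhesive protein that bridges platelets to collagen, and Mmrn1, the granule carrier multimerin, did not pass in the test of ME against control at any age. Vwf stood at 31.2 ± 11.8 CPM in E16 controls and 22.2 ± 13.7 CPM in E16 ME, and the differences were -0.49 ± 0.47, 0.49 ± 0.47 and 0.10 ± 0.47 at E16, P14 and 8wk. Mmrn1 differed by -0.23 ± 0.32, 0.29 ± 0.32 and -0.55 ± 0.32. Mmrn1 was called lower at 8wk with replicate number as a block (-0.72, edgeR adjusted p = 0.0338) and without 8wk ME replicate 4 (-0.88, 0.0492). Both genes are also known from stem cells and endothelium.

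**Figure D3:**
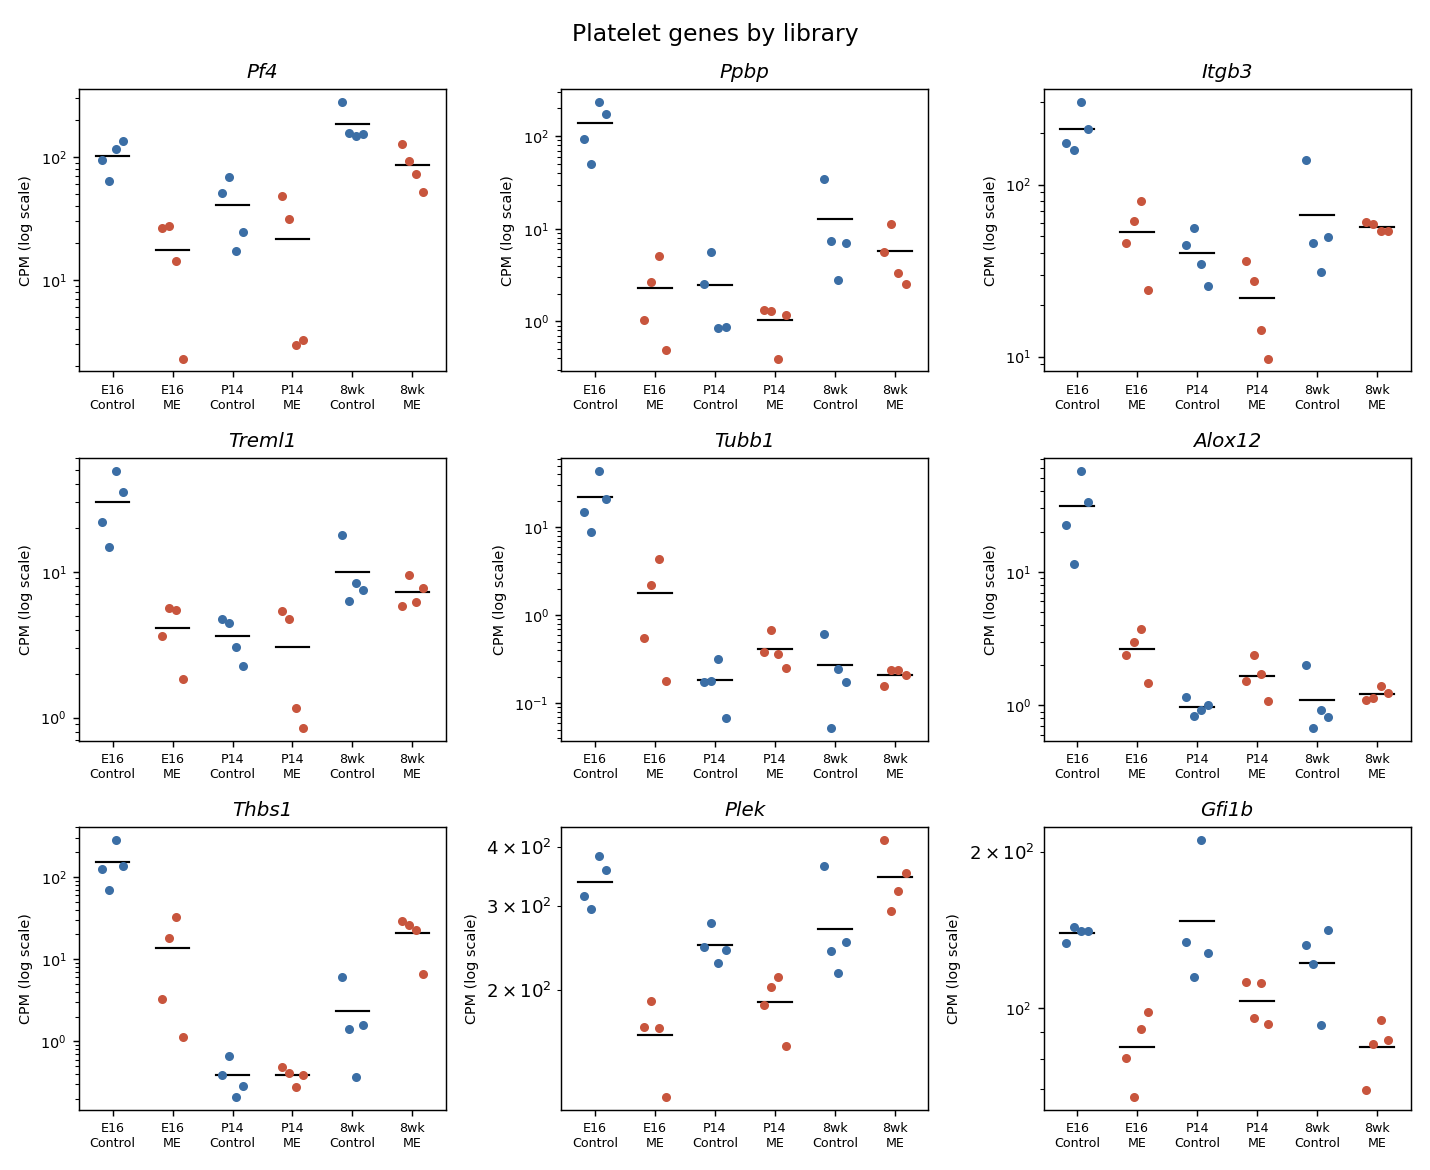
CPM (log scale) of 9 platelet genes in each library (points; controls blue, ME red), with the group mean as a line (4 libraries a group). Ppbp, Tubb1, Alox12 and Thbs1 are higher in all 4 E16 controls than in any other library, and Thbs1 is higher in 8wk ME than in 8wk controls.

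Signalling, secretion and enzyme genes fell in part at E16. Alox12 (chromosome 11, 70241457 to 70255353), the platelet lipoxygenase, read 22.6, 11.4, 56.9 and 33.1 CPM in E16 controls and 2.38, 3.01, 3.73 and 1.48 CPM in E16 ME (-3.55 ± 0.41, edgeR adjusted p = 3.61e-06). Plek (chromosome 11, 16971206 to 17052381), pleckstrin, the main protein kinase C substrate of platelets and also abundant in leukocytes, read 316, 297, 382 and 358 CPM against 167, 189, 166 and 119 CPM (-1.08 ± 0.16, adjusted p = 4.34e-05). Neither overlapped between the E16 groups. Alox12 differed by 0.77 ± 0.39 at P14 and 0.12 ± 0.40 at 8wk, and Plek by -0.40 ± 0.15 and 0.36 ± 0.15, none past the threshold. Without 8wk control replicate 1, Plek was higher in 8wk ME, at 0.54 (adjusted p = 0.00599), and with only the P14 libraries in the fit it was lower in P14 ME, at -0.39 (adjusted p = 0.0312). Plek overlaps Cnrip1 on the opposite strand.

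Lat, the adaptor below the collagen receptor and the T cell receptor, read 25.5, 18.4, 29.2 and 30.2 CPM in E16 controls and 16.0, 15.2, 15.0 and 17.2 CPM in E16 ME (-0.70 ± 0.15, edgeR adjusted p = 0.00142). In 8wk controls it read 39.8, 40.1, 50.8 and 46.7 CPM and in 8wk ME 22.8, 21.5, 23.7 and 31.2 CPM (-0.84 ± 0.15, adjusted p = 0.00024). Rab27b, a small GTPase of dense granule secretion, read 21.5, 15.1, 33.0 and 34.5 CPM in E16 controls and 10.6, 12.1, 10.2 and 7.62 CPM in E16 ME (-1.36 ± 0.26, adjusted p = 0.000614). Its 8wk controls read 47.4, 31.3, 28.2 and 26.8 CPM and its 8wk ME libraries 11.2, 15.7, 14.3 and 24.7 CPM (-1.02 ± 0.25, adjusted p = 0.00484). Both genes were lower in every ME library than in every control at E16 and at 8wk. Neither passed at P14, where Lat differed by -0.34 ± 0.14 and Rab27b by -0.37 ± 0.25. With a correction for GC content Lat was lower at P14, at -0.54 (adjusted p = 0.0306). Lat holds a microRNA gene, Mir7058, on its strand.

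Ptgs1, the cyclooxygenase that starts thromboxane synthesis, read 131, 128, 128 and 129 CPM in P14 controls and 96.9, 104, 91.1 and 101 CPM in P14 ME (-0.40 ± 0.12, edgeR adjusted p = 0.0238). Its 8wk controls read 143, 132, 107 and 136 CPM and its 8wk ME libraries 68.1, 101, 113 and 113 CPM (-0.39 ± 0.12, adjusted p = 0.0207). The groups were apart at P14 and overlapped at 8wk. With replicate number as a block within each age the P14 call was lost (edgeR adjusted p = 0.0709). It was also lost with scaling by library size only (0.109) and with a correction for GC content (0.0528). The same held without P14 ME replicate 1 (0.0503), P14 ME replicate 3 (0.0671) or P14 control replicate 4 (0.0529). The 8wk call was lost without 8wk ME replicate 1 (-0.25, 0.0666) or 8wk control replicate 4 (0.0562), with only the 8wk libraries in the fit (0.182) and with library size scaling (0.0712). Ptgs1 overlaps Gm43621 on the opposite strand.

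Gng11, a G protein gamma subunit, read 4.43, 6.70, 3.66 and 3.83 CPM in P14 controls and 7.65, 8.17, 7.15 and 9.65 CPM in P14 ME, above every control (0.81 ± 0.24, edgeR adjusted p = 0.0179). The call was lost without P14 ME replicate 4 (adjusted p = 0.0558) and without P14 control replicate 1 (0.0502), 3 (0.0666) or 4 (0.0664). Rasgrp2, an exchange factor that switches on Rap before integrin activation, passed at no age, with group means of 80.8 to 90.4 CPM. With a correction for GC content it was lower at 8wk, at -0.31 (adjusted p = 0.0153). It overlaps Gm14965 on the opposite strand.

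The cytoskeletal genes had most of their signal in fetal control cells and fell there in ME. Tubb1, the beta tubulin of the platelet's marginal coil, read 14.9, 8.67, 43.5 and 20.6 CPM in E16 controls and 0.553, 2.19, 4.29 and 0.179 CPM in E16 ME, with no overlap (-3.59 ± 0.70, edgeR adjusted p = 0.00102). Without E16 ME replicate 3 it was -4.48 (adjusted p = 0.000338). In the bone marrow groups every library lay under 1 CPM. Myl9, a regulatory light chain of myosin, had 48, 16, 124 and 43 counts in the E16 control libraries and 0, 7, 8 and 0 in E16 ME (-4.08 ± 0.98, adjusted p = 0.00531). Among the 8wk libraries it had 4, 0, 2 and 8 counts in ME and 0 in all controls. Myl9 was called higher at 8wk (edgeR adjusted p = 0.0439). With the 8wk controls set to a floor of 3 counts over the group, the ratio of pooled CPM was 5.39, with no allowance for spread between libraries. That call rested on 14 counts and was lost without any single 8wk library other than ME replicate 2 (adjusted p = 0.0519 to 0.118) and with limma-voom (0.16). Endothelial and stromal cells also use this gene.

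Of the transcription factors, Gfi1b was called lower at all 3 ages, the only member of the 32 with such calls. Other genes, Cd9, Lat and Rab27b among them, were also lower in ME at each age, but were not called at P14. Gfi1b, a repressor needed for the megakaryocyte and erythroid lineages, read 134, 144, 141 and 141 CPM in E16 controls and 80.2, 67.5, 91.3 and 98.3 CPM in E16 ME (-0.73 ± 0.16, edgeR adjusted p = 0.00239). At P14 controls read 134, 115, 211 and 128 CPM and ME 113, 95.8, 112 and 93.2 CPM (-0.51 ± 0.16, adjusted p = 0.0255). At 8wk controls read 132, 121, 93.03 and 142 CPM and ME 69.6, 85.6, 95.0 and 86.8 CPM (-0.53 ± 0.16, adjusted p = 0.0154). The groups were apart at E16 and P14 and overlapped at 8wk. The P14 call was lost without P14 ME replicate 2 (adjusted p = 0.0732), P14 ME replicate 4 (0.0734) or P14 control replicate 3 (-0.28, 0.172), and with scaling by library size only (0.0699) and with only the P14 libraries in the fit (0.0709). The 8wk call was lost without 8wk ME replicate 1 (0.0525) or 8wk control replicate 4 (0.0602), and with only the 8wk libraries in the fit (0.0533).

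Nfe2, the factor needed for platelet release, read 383, 379, 459 and 452 CPM in 8wk controls and 234, 306, 265 and 370 CPM in 8wk ME, every ME library below every control (-0.51 ± 0.13, edgeR adjusted p = 0.00522). With only the 8wk libraries in the fit the call was lost (adjusted p = 0.0568). At E16 and P14 it differed by -0.08 ± 0.13 and -0.11 ± 0.13. Fli1, an ETS factor that drives many platelet genes, passed at no age, at 0.02 ± 0.11, 0.11 ± 0.11 and -0.19 ± 0.11. Without 8wk ME replicate 4, its highest ME library, Fli1 was lower at 8wk, at -0.35 (adjusted p = 0.0107). At E16 Nfe2 and Fli1 RNA stayed near the control level (277 ± 59.9 against 294 ± 10.8 CPM, and 215 ± 24.0 against 212 ± 13.9 CPM) in the libraries where 20 of the 32 genes fell.

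Differences between the MLL::ENL effects at the 3 ages were tested as interaction terms. The E16 effect is part of both differences below and its libraries are shared by them. From E16 to P14, the effect was higher for 1 of the 32 genes and lower for 0, where 0.0158% and 0.00528% of all tested genes were called. That gene was Alox12, at 4.32 ± 0.56 log2 (edgeR adjusted p = 0.00191). From E16 to 8wk the effect was higher for 4 genes and lower for 0, against 0.46% and 0.391% of all tested genes. They were Alox12 (3.67 ± 0.56, adjusted p = 0.00314), Plek (1.44 ± 0.22, adjusted p = 0.00314), Thbs1 (6.63 ± 1.18, adjusted p = 0.011) and Myl9, whose fitted difference rests on a group at 0 counts (adjusted p = 0.0324, and 0.05 to 0.0716 without 1 of 8 libraries). The Thbs1 call was lost with only the E16 and 8wk libraries in the fit (adjusted p = 0.0515), and its value was 7.74 without 8wk control replicate 1 (adjusted p = 0.00209) and 7.5 without E16 ME replicate 3 (adjusted p = 0.0095). Alox12 averaged 31.0 CPM in E16 controls, but 0.982 CPM in P14 controls and 1.10 CPM in 8wk controls, so a fall after birth had little room. Thbs1 averaged 153 CPM in E16 controls and 2.34 CPM in 8wk controls, whereas Plek averaged 338 and 269 CPM. The part of these control levels in the differences was not tested. The median difference over the 32 genes was 0.99 from E16 to P14 and 0.73 from E16 to 8wk, against 0 and -0.07 over all tested genes. From E16 to 8wk the median of the 32 genes was 1.27 without 8wk control replicate 1.

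Several further genes of the fetal fall missed that threshold narrowly. Ppbp differed between 8wk and E16 by 4.70 ± 1.15 (edgeR adjusted p = 0.0528) and Gp1ba by 2.30 ± 0.59 (adjusted p = 0.0605). Without 8wk control replicate 1, the library with the highest level of 24 of the 32 genes among 8wk controls, 10 genes were called higher in that difference, Ppbp (5.88, adjusted p = 0.0074) and Gp1ba (3.12, adjusted p = 0.0012) among them. Over all tested genes, 504 of 19295 were higher in that fit, against 87 of 18931 with all libraries. Leaving out 8wk control replicate 2, 3 or 4 instead gave 3 of the 32 genes each time. Between P14 and 8wk edgeR called 0 of the 32 genes in either direction, where 0.195% of all tested genes were higher and 0.106% lower. At an unadjusted p under 0.05, 2 were higher and 3 lower in that difference, and DESeq2 called 0. Without 8wk control replicate 1 Plek was called (0.94, adjusted p = 0.0152), where 204 of all 19295 tested genes were higher.

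In control cells, more of the platelet genes were lower than higher after birth when set against E16. From E16 to P14, 17 of the 32 fell and 1, Lat, rose, where 7.51% and 7.61% of all tested genes were lower and higher. Control groups did not overlap for 18 genes lower and 3 higher (12.6% and 11.9% of all tested genes). The median log2 fold change was -1.18, against 0.01 over all tested genes. Thbs1 changed by -8.61 ± 1.09 (edgeR adjusted p = 1.39e-05), Slc6a4 by -7.00 ± 1.34 (adjusted p = 0.00109), Tubb1 by -6.86 ± 0.85 (adjusted p = 8.52e-06), Ppbp by -5.80 ± 0.94 (adjusted p = 0.000236) and Alox12 by -4.98 ± 0.44 (adjusted p = 6.27e-08). All 5 were lower in every P14 control than in every E16 control. Myl9 had 231 counts over the E16 controls and 1 over the P14 controls, a ratio of pooled CPM of 321 with a 95% counting interval of 57 to 12700. That interval leaves out the spread between libraries and takes every count as independent. With 63.6% of low count values even numbers (median library), it may be too narrow. Lat rose by 0.92 ± 0.15 (adjusted p = 0.000105). Without P14 control replicate 2, Gp6, Clec1b, Slc6a4 and Ppbp fell further, with Slc6a4 at -8.68 (adjusted p = 0.00118) and Ppbp at -6.63 (adjusted p = 0.000344). The F2r and Vwf calls were each lost without any 1 of the control libraries other than E16 control replicate 2 (adjusted p = 0.0646 to 0.163 and 0.0584 to 0.124).

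From E16 to 8wk, 13 genes were lower and 5 higher in controls, against 10.8% and 12.5% of all tested genes. Groups did not overlap for 10 lower and 5 higher (13.1% and 12.6%). Both comparisons use the E16 controls, so they are not independent. Tubb1 differed by -6.24 ± 0.82 (edgeR adjusted p = 1.14e-05), Thbs1 by -6.00 ± 0.95 (adjusted p = 0.00011) and Alox12 by -4.79 ± 0.44 (adjusted p = 6.07e-08), with the groups apart. Selp (2.93 ± 0.59, adjusted p = 0.00095), Gng11 (0.97 ± 0.24, adjusted p = 0.0046), Lat (0.78 ± 0.15, adjusted p = 0.000416), Cd9 (0.60 ± 0.14, adjusted p = 0.00263) and Nfe2 (0.51 ± 0.13, adjusted p = 0.00546) were higher at 8wk. Without 8wk control replicate 1, Itgb3, Gp1ba, Gp6, Clec1b, Slc6a4, Ppbp, Thbs1 and Tubb1 were lower still, with Thbs1 at -7.12 (adjusted p = 6.04e-05) and Tubb1 at -7.04 (adjusted p = 1.86e-05). The Treml1 call (-1.59 ± 0.51, adjusted p = 0.0271) was lost without E16 control replicate 3 (0.103) or 4 (0.0553) or 8wk control replicate 2 (0.0844), 3 (0.0773) or 4 (0.0744), and the P2rx1 call without E16 control replicate 3 (0.0664).

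From P14 to 8wk, 6 genes were higher and 0 lower in controls, where 7.01% and 5.58% of all tested genes were called. They were Itga2b (1.30 ± 0.31, edgeR adjusted p = 0.0111), Selp (2.71 ± 0.58, adjusted p = 0.00532), Cd9 (0.76 ± 0.14, adjusted p = 0.00155), Vwf (1.5 ± 0.48, adjusted p = 0.0447), Gng11 (1.56 ± 0.24, adjusted p = 0.000371) and Rab27b (1.39 ± 0.26, adjusted p = 0.00168). Every 8wk control lay above every P14 control for each of the 6, and for 8 of the 32 genes in all, against 7.88% of all tested genes, with 0 the other way round (8.22%). The Vwf call was lost without any single control library other than 8wk control replicate 3 (adjusted p = 0.0526 to 0.19) and with limma-voom (0.057).

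Per kilobase of exon, the order of the genes changed with age. In E16 controls Pf4 (141 CPM per kb), Ppbp (128), Cd9 (125), Nfe2 (98.3), Gfi1b (76.3) and Plek (75.4) led. In 8wk controls Pf4 (257), Cd9 (190), Nfe2 (140) and Fli1 (68.9) led, and Ppbp stood at 11.9 CPM per kb. Over the control ages Fli1 ran from 60.9 to 68.9 CPM per kb and Ptgs1 from 33.2 to 36.8, whereas Thbs1 ran from 0.0635 CPM per kb in P14 controls to 25.1 in E16 controls.

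**Figure D4:**
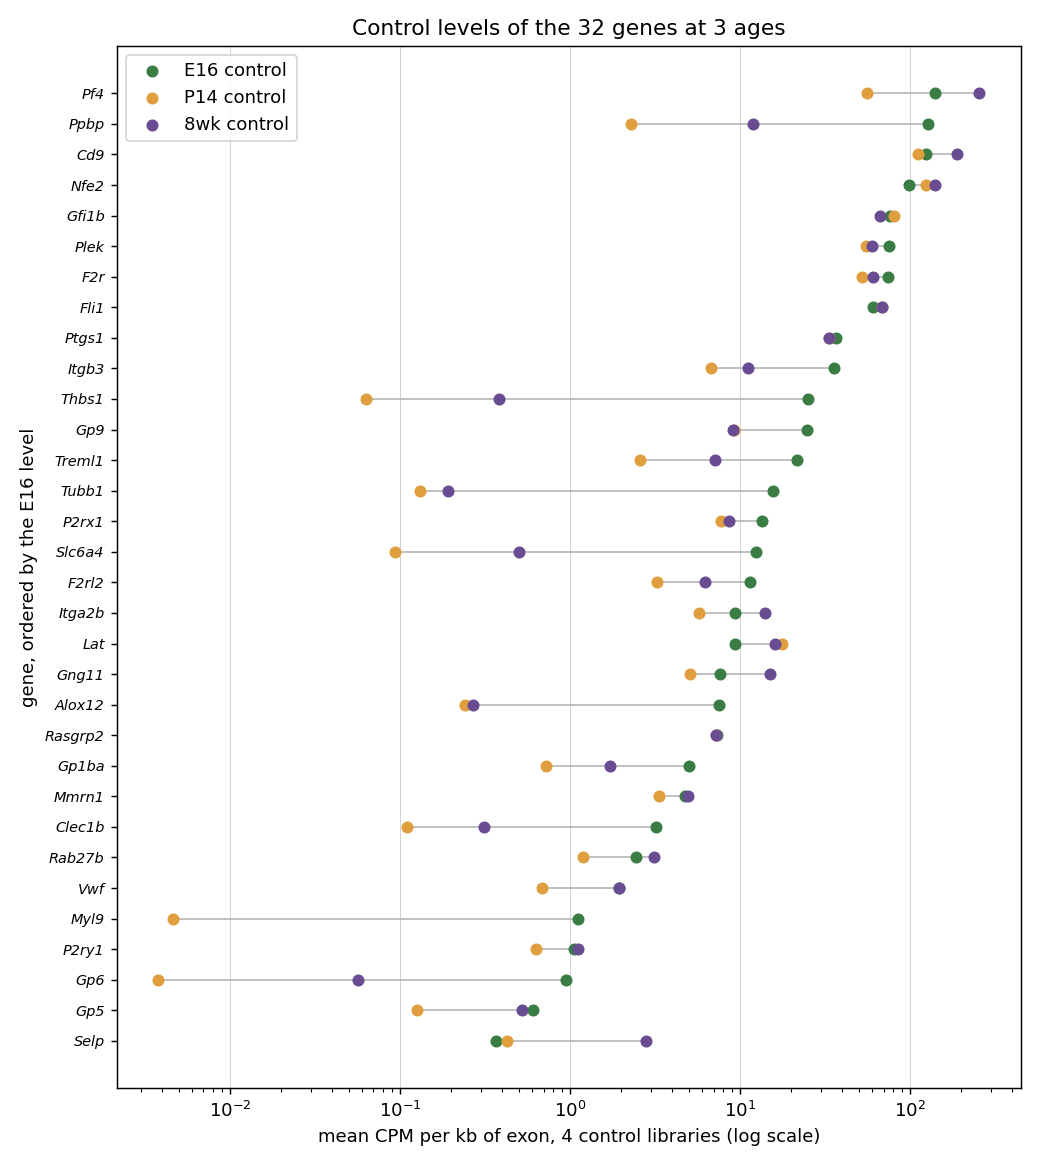
Mean CPM per kb of exon (log scale) of each gene in the E16, P14 and 8wk controls (4 libraries each), ordered by the E16 level; a group at 0 counts is not drawn. Thbs1, Tubb1, Alox12 and Slc6a4 lie far to the right at E16, while Fli1 and Rasgrp2 hardly differ between ages.

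Within groups, many of the genes were high or low in the same libraries. E16 control replicate 2 was the lowest of its group for 27 of the 32 genes, against 23% of all tested genes, and E16 control replicate 3 was the highest for 18, against 21%. Ppbp, for instance, ran from 49.7 to 236 CPM, Tubb1 from 8.67 to 43.5 CPM and Alox12 from 11.4 to 56.9 CPM between those libraries. In 8wk controls replicate 1 was the highest for 24 of the 32 genes, against 32.3% of all tested genes. In P14 ME replicates 1 and 2 were the highest for 16 and 11 genes, against 32.5% and 17.8%. No test was made of these counts, since the genes are not independent of each other.

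Markers of other cells varied between libraries too. The summed level of 10 neutrophil markers was 2278, 1766, 553 and 245 CPM in P14 ME replicates 1 to 4, and Pf4 was likewise higher in replicates 1 and 2 than in replicates 3 and 4 (47.8 and 31.6, then 2.98 and 3.25 CPM). In P14 controls the sums were 1392, 1583, 962 and 421 CPM, with Pf4 at 51.4, 68.7, 17.3 and 24.6 CPM. Among 8wk controls replicate 1 had a sum of 4801 CPM and the others 541 to 1067 CPM, and among E16 ME libraries replicate 4 had 1014 CPM and the others 3744 to 6207 CPM. At E16 the sums overlapped between ME (1014 to 6207 CPM) and controls (4144 to 10200 CPM), and of the 10 markers 1 fell (Ltf, -3.34 ± 0.94, edgeR adjusted p = 0.0151). Their median log2 fold change at E16 was -1.53, with 9 of 10 below 0. In E16 controls the sums were 10200, 5818, 4144 and 4876 CPM with Pf4 at 94.5, 63.6, 116 and 134 CPM, so the replicates lowest in these markers, 3 and 4, were highest in Pf4. At P14 the neutrophil markers had a median of -0.71 and at 8wk of 1.52, with 0 of 10 called at either age, 6 of 10 below 0 at P14 and 0 of 10 at 8wk. The sums at 8wk were 1559 to 7148 CPM in ME and 541 to 4801 CPM in controls.

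Several markers of the B lineage rose in ME. Of 10 such markers 4 rose at E16, 8 at P14 and 3 at 8wk, and 0 fell, with medians of 1.89, 2.96 and 1.57. Their summed level was 114 to 221 CPM in ME and 67.04 to 79.3 CPM in controls at E16, 108 to 447.5 CPM and 79.6 to 148 CPM at P14, and 167 to 334 CPM and 101 to 221 CPM at 8wk. The part of neutrophil and B lineage cells in the platelet gene values was not tested. Without E16 ME replicate 4, 8wk ME replicate 4 and 8wk control replicate 1, 19 of the 32 genes were lower at E16 and 1 was higher, and at 8wk 8 were lower and 6 higher. Of all 19267 genes tested in that fit, 1453 were lower and 2221 higher at E16, and 3320 lower and 3413 higher at 8wk. No pattern of the 32 genes is read from the 8wk counts.

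**Figure D5:**
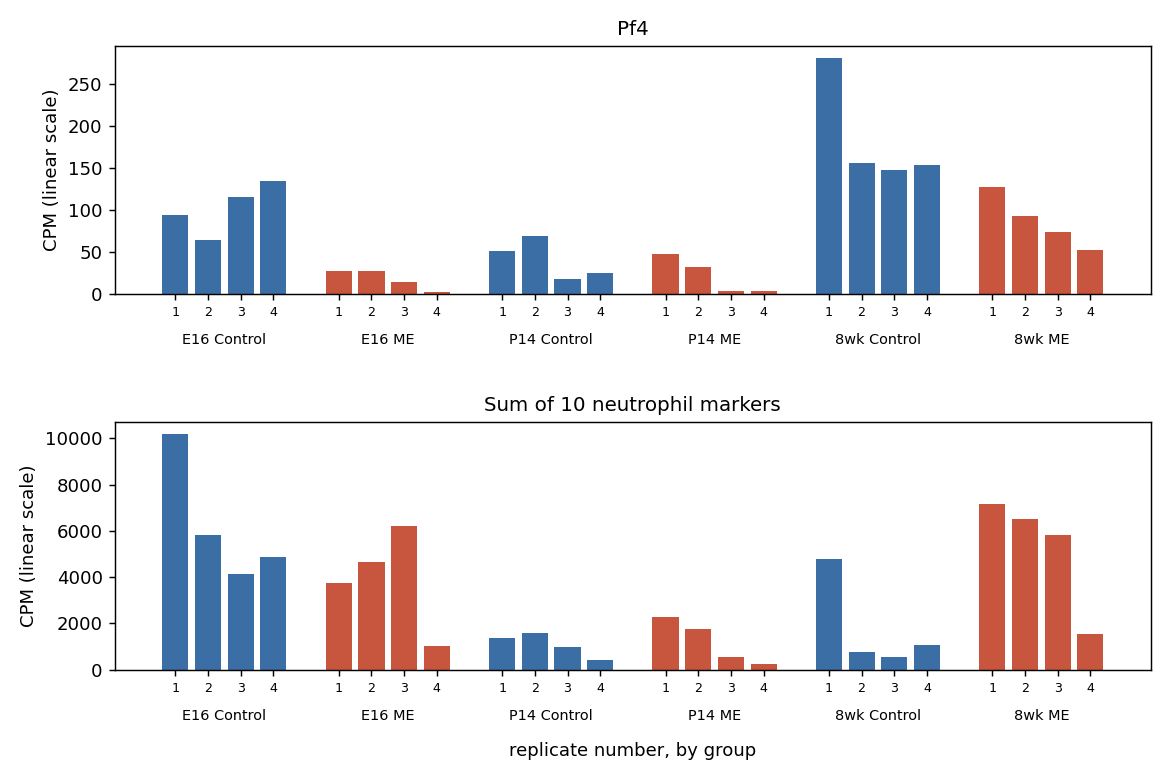
CPM (linear scale, bars from 0) of Pf4 (top) and of the sum of 10 neutrophil markers (bottom) in each library, by group and replicate number (controls blue, ME red). P14 ME replicates 1 and 2 are above replicates 3 and 4 in both panels, and 8wk control replicate 1 is the highest of its group in both.

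Erythroid and mast cell lineages share regulators with megakaryocytes. At E16, of 12 erythroid markers 1 fell and 0 rose (Tfrc, -1.06 ± 0.35, edgeR adjusted p = 0.0358), with summed levels of 596 to 1522 CPM in ME and 1153 to 1526 CPM in controls. Of 12 mast cell and basophil markers 2 fell, among them Mcpt8 (-2.53 ± 0.36, adjusted p = 3.99e-05), with a median of -0.91 over the list and a sum of 135 to 241 CPM in ME and 196 to 284 CPM in controls. Of 9 tested endothelial markers 3 rose, with Emcn at 2.05 ± 0.27 (adjusted p = 1.25e-05), and of 8 markers of long-term stem cells 6 rose and 1 fell, with Mecom at 2.38 ± 0.29 (adjusted p = 7.66e-06). At 8wk, 2 of the 12 mast cell and basophil markers fell and 11 of 12 were below 0, with a median of -0.56. Their sums did not overlap there, at 125 to 202 CPM in ME and 228 to 300.5 CPM in controls. The part of any of these lists in the platelet gene values was not tested.

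Other genes of the pathway were taken from lists by function. Of all tested genes 13.3% rose and 8.47% fell at E16, 12.7% and 9.35% at P14, and 14.2% and 14.3% at 8wk. Of 19 other megakaryocyte transcription factors, 10 rose and 1 fell at E16, 8 rose and 0 fell at P14, and 7 rose and 0 fell at 8wk. The one that fell was Gata1, the lineage's central factor, named here after its values were seen. It went from 25.4, 18.6, 24.8 and 23.9 CPM in E16 controls to 11.4, 11.9, 13.9 and 7.91 CPM in E16 ME, without overlap (-1.04 ± 0.32, edgeR adjusted p = 0.0213). Among those that rose, Ldb1, which bridges GATA1 complexes, changed by 2.31 ± 0.29 at P14 (adjusted p = 8.83e-06), Ets1 by 1.58 ± 0.24 at E16 (adjusted p = 6.62e-05), Lmo2 by 1.02 ± 0.16 at E16 (adjusted p = 0.000125) and Mef2c by 0.72 ± 0.09 at P14 (adjusted p = 1.16e-05). The median over these 19 genes at E16 was 0.42, against 0.02 over all tested genes.

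Of 23 other tested platelet receptor and signalling genes, 3 rose and 1 fell at E16, 4 rose and 2 fell at P14, and 4 rose and 2 fell at 8wk. These counts lay near the shares over all tested genes, and no pattern is read from them. Rap1b, the GTPase that precedes integrin activation, rose by 2.12 ± 0.35 at P14 (edgeR adjusted p = 0.000214), Fcer1g, the signalling partner of the collagen receptor and of Fc receptors, by 0.91 ± 0.14 at 8wk (adjusted p = 6.46e-05), and Cd84 by 0.57 ± 0.12 at P14 (adjusted p = 0.00173), while Jam3 fell at 8wk (-0.75 ± 0.19, adjusted p = 0.00606). Of 25 other granule and cytoskeleton genes, 1 rose and 6 fell at E16, 1 rose and 5 fell at P14, and 4 rose and 5 fell at 8wk. At E16, 16 of these 25 were below 0, with a median of -0.23 against 0.02 over all tested genes, the same direction as the 32. Their medians at P14 and 8wk were -0.01 and 0.08. Tmem40 (-0.91 ± 0.11 at E16, adjusted p = 8.2e-06) and the secretion protein Vamp8 (-0.71 ± 0.13 at 8wk, adjusted p = 0.000282) fell, and the tropomyosin Tpm4 (2.11 ± 0.14 at 8wk, adjusted p = 9.99e-10) and the syntaxin Stx11 (1.62 ± 0.35 at 8wk, adjusted p = 0.00191) rose.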

How the data were processed

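The deposited table holds counts of reads per gene, not normalised. Per the submitters' processing notes, the authors used STAR 2.7.9a, Subread's featureCounts 2.0.3 and the GRCm38 build. The strand setting and annotation release are not given in the sources used here. RNA came from sorted cells by a column kit and was amplified with a SMART-type kit, per the labels' protocols. Of 55774 lines, repeats of 168 identifiers with identical counts were dropped, leaving 55487 genes. At low counts 63.6% of values were even (median library), which may bear on their precision. CPM and tests used TMM factors. The quasi-likelihood test of edgeR 4.0.16 (R 4.3.3) was fitted to all 24 libraries with 1 mean per group, after filterByExpr with a minimum count of 10, and p-values were adjusted by Benjamini-Hochberg over 18931 genes, called under 0.05. All 9 comparisons came from that fit. DESeq2 1.42.0, limma-voom (limma 3.58.1), other scalings and filters, a GC correction, a replicate block and leaving out each library were alternatives. Exon lengths, coordinates and GC content came from GENCODE for GRCm38 and promoters from RefSeq.

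Same-numbered ME and control libraries deviated together at P14 (correlations of 0.19, 0.14, 0.14 and 0.23 for replicates 1 to 4). There, replicates 1 and 4 correlated best with their own number, replicate 2 with 1 and replicate 3 with 4. The labels do not give pairs, and the main tests used none. An alternative fit took replicate number as a block within each age. In simulated counts every library had the E16 control means, few genes were changed in E16 ME and genes were drawn independently. With 17794 genes tested, edgeR recovered 44 of 92 genes given a 2-fold change and 80 of 96 given a 4-fold change. There were 4 false calls among 17606 unchanged genes. In the data more genes changed and genes varied together between libraries, so these numbers do not measure the power or false calls of the real comparison.

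The genes and all lists were chosen with earlier results of these data known. All 32 genes are named. Those called in an MLL::ENL comparison, with at least 5 CPM in their highest group, have every library's value given. Of other lists up to 4 called genes with the smallest adjusted p are named, and Gata1, outside that rule, was named after its values were seen.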

Additional observations from a re-analysis of the deposited data

Results flagged for a closer look

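In each group of 4 libraries, 1 library was looked for that stood far from the others, by the gap to its nearest neighbour as a share of the group's range (Dixon's test at its critical value). Of 192 gene and group sets, 15 had such a library, and chance gives about 1 in 20. In 8wk controls, 6 of them were replicate 1, the highest library for F2rl2 (35.6 CPM), Gp5 (3.35 CPM), Gp6 (1.13 CPM), Pf4 (282 CPM), Ppbp (34.4 CPM) and Slc6a4 (7.69 CPM). In P14 controls, 3 were replicate 2, the highest for Clec1b (1.32 CPM), Gp6 (0.0897 CPM) and Slc6a4 (1.32 CPM). The others were Fli1 in P14 control replicate 4 (257 CPM, highest), Myl9 in P14 control replicate 1 (0.0215 CPM, highest), Ppbp in P14 ME replicate 3 (0.397 CPM, lowest), Ptgs1 in E16 ME replicate 3 (147 CPM, highest), and Gp6 (1.14 CPM, replicate 2) and Itga2b (101 CPM, replicate 4), both highest in 8wk ME.

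The MLL::ENL effect differed between ages, by the interaction term in edgeR, for Alox12 from E16 to P14 (4.32 log2) and from E16 to 8wk for Thbs1 (6.63), Plek (1.44), Alox12 (3.67) and Myl9 (9.02, a fitted value with a group at 0 counts, and no bound). Control levels of Alox12 and Thbs1 were far lower in bone marrow than at E16.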

How the results depend on the processing

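No gene result changed sign under any alternative. Leaving out 1 library at a time, 638 gene results kept their call and 74 lost it. The count of genes lower at E16 ran from 17 to 20, higher at E16 from 0 to 1, higher at P14 from 2 to 5, lower at P14 from 1 to 3, higher at 8wk from 2 to 5 and lower at 8wk from 4 to 9. In the difference between 8wk and E16 the count of higher genes ran from 3 to 10, and between 8wk and P14 from 0 to 1. Over all tested genes those counts ran from 22 to 504 and from 4 to 204.

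At E16, 1 gene (Gp5) was higher with DESeq2, with a filter of 1 CPM in 4 libraries, with GC correction, with the replicate block in the fit (adjusted p = 0.00617), with only the groups compared, without the 3 libraries that stand apart, and with the block within each age. At P14, 0 were lower with library size scaling (1126 of all 18931 tested genes) and 4 without the 3 libraries (2190 of 19267). From E16 to P14 the effect was higher for 4 genes with DESeq2 (20 of all 20519 tested genes). From E16 to 8wk it was higher for 8 with DESeq2, 2 with only the groups compared and 11 without the 3 libraries. Over all tested genes these settings called 344 of 17561, 35 of 18222 and 749 of 19267 higher, against 87 of 18931 in the main fit. From P14 to 8wk the effect was higher for 2 and lower for 2 without the 3 libraries, where 565 and 444 of all 19267 tested genes were called. In controls from E16 to P14, 2 were higher with only the groups compared (1715 of all 16906 tested genes) and without the 3 libraries (1848 of 19267). In controls from P14 to 8wk, 11 were higher with DESeq2 (1580 of all 18299 tested genes) and with the 1 CPM filter (1536 of 14452). The cause of these moves was not tested. Leaving out the 3 libraries, and the block within each age, were chosen after seeing the data.

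Library size scaling raised the share of higher calls over all genes from 61.1% to 74.6% at E16 and from 57.5% to 70.5% at P14, with a median log2 fold change of 0.11 over all genes at both ages, and lowered it from 55.7% to 43.2% in controls from P14 to 8wk. The fit of 8wk libraries alone gave 67.9% against 49.8%, with 1974 higher and 933 lower genes against 2684 and 2708.

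The replicate block for all ages lost 3 of 84 gene calls, among them Myl9 at 8wk (adjusted p = 0.0559). Same-numbered libraries deviated together little or not at all at E16 (correlations of -0.04 to 0) and 8wk (-0.09 to 0.12). The labels do not say whether the numbers mark pairs at any age, and low correlations cannot show that they do not. With the block within each age, Clec1b at E16 (adjusted p = 0.0531), Ptgs1 at P14 (0.0709) and 8wk (0.0541), Myl9 at 8wk (0.0744) and Myl9 in the difference between 8wk and E16 (0.0793) were lost. Myl9 and Gp6 held 0 counts in several bone marrow libraries, and low counts limit the precision of their folds there.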
